A study of Homo sapiens with 6 samples.

Results

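The sphingosine-1-phosphate genes examined here are 8 members of 1 lipid signaling system: the receptors S1PR1, S1PR2, S1PR3, S1PR4 and S1PR5, the kinase SPHK1, the lyase SGPL1 and the exporter SPNS2. They were taken by gene name from the 57341 named genes of the table of counts, and all 8 were found in it. RNA was sequenced from H295R, a human adrenocortical carcinoma cell line that secretes steroids, and from H295R-PM-Ptc+, cells sorted from that line by flow cytometry for surface Ptch1, the Hedgehog receptor, and grown up afterwards. Each group held 3 replicates, no drug was given, and both cultures were kept in the same serum-supplemented medium. The sorted cells are therefore a selected and expanded population of 1 carcinoma line, not an engineered one. The comparison asks how these genes differ between the sorted cells and the line they came from.

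Sphingosine-1-phosphate (S1P) is a signaling lipid. Cells make it by phosphorylating sphingosine with the kinases SPHK1 and SPHK2, and they remove it with phosphatases, which give sphingosine back, or irreversibly with the lyase SGPL1. S1P that leaves the cell, through SPNS2 or other transporters, binds a family of G protein-coupled receptors. S1PR1 couples to Gi proteins, S1PR2 and S1PR3 also to Gq and G12/13 proteins, and S1PR4 and S1PR5 to Gi and G12/13 proteins. In adrenocortical cells S1P is known as a stimulus of steroid secretion.

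Library totals ran from 23264403 to 25813247 counted fragments, and 16710 genes passed the filter on low counts and were tested with edgeR. Deposited counts and the normalized values that accompany the study carry swapped group names: for all 6 columns compared, the matching deposited column has the same replicate code but the name of the other group. PTCH1, which encodes the protein used for the sort, was lower in the H295R-PM-Ptc+-labelled libraries, with 12.2 ± 2.19 CPM (normalized counts, scaled to library size; SD, n = 3) against 21.3 ± 2.56 in the H295R-labelled ones (log2 fold change -0.81, standard error, SE, 0.147, adjusted p = 0.0207 by edgeR). This call was lost without H295R replicate 2 (adjusted p = 0.0799), H295R replicate 3 (0.0921) or H295R-PM-Ptc+ replicate 2 (0.0618), with log2 fold changes of -0.91 to -0.67 over all 6 such fits. The direction of PTCH1 thus went against the deposited labels, but counts alone cannot settle which names are right, so every direction below belongs to the libraries as labelled. Of 9 adrenocortical marker genes 8 were tested, with summed levels of 880 to 1160 CPM in the H295R-labelled libraries and 958 to 1220 in the H295R-PM-Ptc+-labelled ones. Nothing in the labels says that the replicates were separate cultures, and p-values then measure only the spread between these samples, which may be technical.

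The receptor genes had log2 fold changes of both signs. S1PR3, by far the most abundant, was lower in the H295R-PM-Ptc+-labelled libraries by 26.4%, while the 33.0% lower level of S1PR5 did not pass the test, except with replicate numbers entered as a block or without a filter on low counts. S1PR1 had a 1.23-fold higher level, which passed with the block and in no other fit tried. SPHK1 and SGPL1 did not pass in either fit, and S1PR4 had no counts at all. Of the 8 genes, 6 passed the filter and 1 of those had an adjusted p under 0.05, where 3.73% of all tested genes did (2.42% higher and 1.32% lower in the H295R-PM-Ptc+-labelled libraries). With the replicate block 3 of the 6 did, 1 higher and 2 lower, where 22.5% of all tested genes did. The median log2 fold change of the 6 was -0.06, beside 0.001 over all tested genes.

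**Figure D1:**
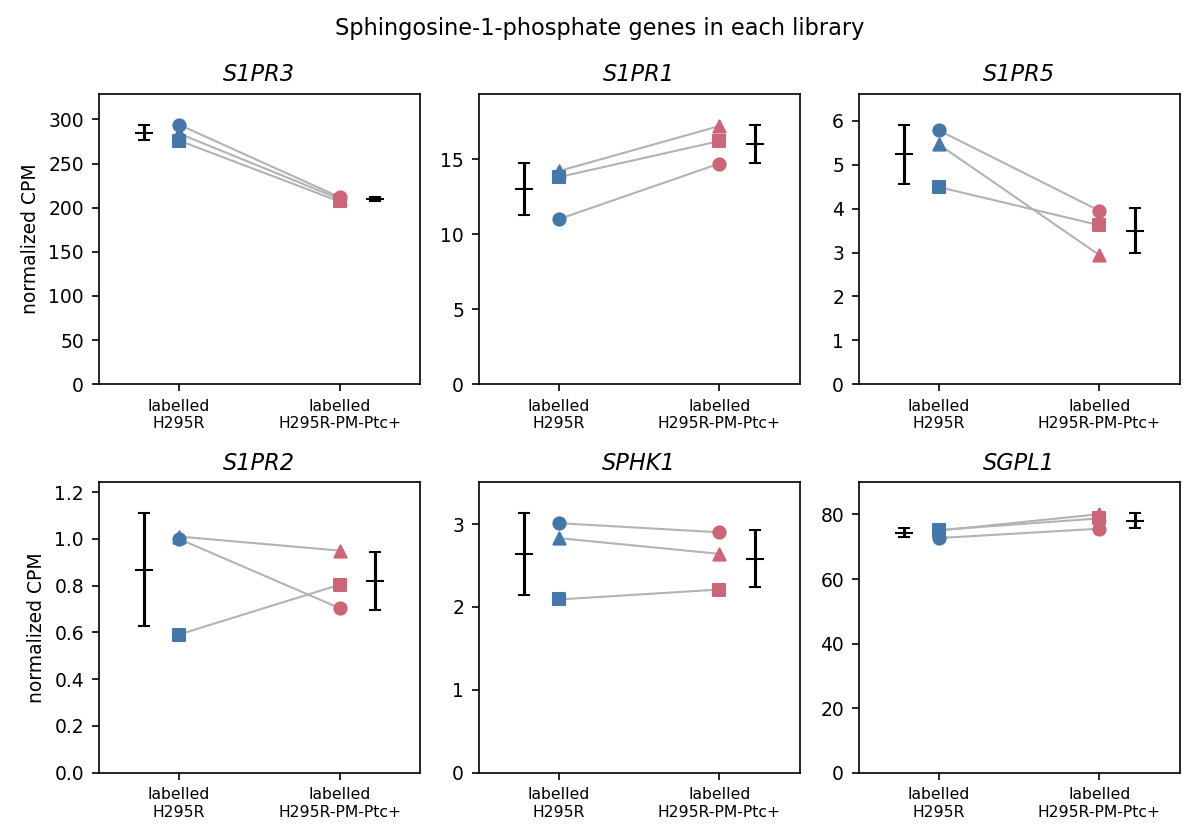
Normalized CPM of the 6 tested S1P genes in each library, 1 panel per gene with the vertical axis from 0. Circles, squares and triangles are replicates 1, 2 and 3, gray lines join replicates with the same number, and the black bars give mean ± SD of 3 libraries; S1PR3 falls along all 3 lines, from 276 to 294 CPM down to 207 to 212, while the lines of S1PR2 cross.

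S1PR3 lies on chromosome 9 at chr9:88991447-89005010 (GRCh38, plus strand), with 8754 exonic bases in the gene model used for the counts. It is the member most often linked to Gq signaling. The H295R-labelled libraries held 7016, 7014 and 7031 counts and the H295R-PM-Ptc+-labelled ones 5421, 5150 and 4857, for replicates 1, 2 and 3. Normalized for library size these were 294, 276 and 284 CPM against 212, 207 and 210. All 3 H295R-labelled libraries thus lay above all 3 of the others, and the gap between the groups was wider than the range within either. The means were 285 ± 8.75 and 210 ± 2.47 CPM (SD, n = 3), a log2 fold change of -0.44 (SE 0.0692, 95% interval -0.60 to -0.28), and an adjusted p of 0.0101 by edgeR's quasi-likelihood test. Within same-numbered replicates the log2 differences were -0.47, -0.41 and -0.44. Leaving out H295R replicate 3, H295R-PM-Ptc+ replicate 2 or H295R-PM-Ptc+ replicate 3 took the adjusted p to 0.0571, 0.068 and 0.0613, with log2 fold changes that stayed between -0.46 and -0.42.

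The change of S1PR3 was small in fold but measured with high precision. Of the 220 genes with an adjusted p under 0.05 and lower counts in the H295R-PM-Ptc+-labelled libraries, 53 fell by less than S1PR3 and 11 had a higher mean CPM. The standard error of its log2 fold change was above that of 341 of the 16710 tested genes. By p-value it ranked 219. S1PR3 and S1PR5 are also genes that the study placed in a network module it built from these libraries, so their direction is not independent evidence.

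RefSeq gives S1PR3 separate transcription starts on GRCh38.p14, and the 250 bases before each are shown because the windows differ sharply in base composition. S1PR5, the receptor gene with the most negative log2 fold change, is shown with its more upstream window. All are written 5′ to 3′ on the strand of the gene, with capitals for matches on either strand to GGGCGG (the GC box) or CACCC (the core of sites bound by Krüppel-like factors).
S1PR3, upstream start, chr9:88990613-88990862, plus strand: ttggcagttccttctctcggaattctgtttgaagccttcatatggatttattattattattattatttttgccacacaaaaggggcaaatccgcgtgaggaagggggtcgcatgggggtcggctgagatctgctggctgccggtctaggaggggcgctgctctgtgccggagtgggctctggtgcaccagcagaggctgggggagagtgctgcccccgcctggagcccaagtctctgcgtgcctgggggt
S1PR3, downstream start, chr9:88991218-88991467, plus strand: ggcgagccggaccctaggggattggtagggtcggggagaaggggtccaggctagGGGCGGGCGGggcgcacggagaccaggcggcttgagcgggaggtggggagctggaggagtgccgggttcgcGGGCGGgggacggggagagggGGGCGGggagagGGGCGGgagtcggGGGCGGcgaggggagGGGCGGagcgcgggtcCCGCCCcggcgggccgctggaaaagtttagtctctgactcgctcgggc
S1PR5, upstream start, chr19:10517966-10518215, minus strand: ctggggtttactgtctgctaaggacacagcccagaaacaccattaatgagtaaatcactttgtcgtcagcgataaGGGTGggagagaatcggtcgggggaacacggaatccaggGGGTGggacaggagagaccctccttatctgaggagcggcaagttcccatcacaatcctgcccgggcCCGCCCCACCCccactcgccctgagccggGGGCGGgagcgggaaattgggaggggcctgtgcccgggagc
The window before the upstream S1PR3 start had 57.2% G and C, near the median of 58.0% over all 35116 windows, and no match. The window before the downstream start had 76.4% and 8 matches to GGGCGG, of which 2 overlap each other, and 0.584% of all windows held at least as many. The S1PR5 window had 61.6%, with 2 matches to GGGCGG and 3 to CACCC, of which a GGGCGG match and a CACCC match on opposite strands share 1 run of capitals. A more downstream S1PR5 window, not shown, had 78.0%, with 2 matches to GGGCGG and none to CACCC, so the windows of S1PR5 also differ in base composition.

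Windows were found for 7 of the 8 genes, 11 windows in all. GGGCGG was in 7 of the 11, where 42.6% of all windows hold it, and CACCC in 8, where 54.7% do. The motif GACCACCCA, bound by the GLI factors of the Hedgehog pathway, was in none of the 11 and in 0.199% of all windows. AAGGTCA, bound by the adrenal factor NR5A1, was in none of the 11 and in 3.44% of all. TGACGTCA, the cAMP response element, was in 1, before S1PR2, and in 1.65% of all. All motifs were searched on both strands, GACCACCCA contains CACCC, and these are matches of letters, not sites shown to be bound.

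The upstream start of S1PR3 coincides with the start of C9orf47 at chr9:88990863-88996140, a gene model on the same strand that shares 226 exonic bases with S1PR3. C9orf47 held 53, 78 and 66 counts in the H295R-labelled libraries and 41, 50 and 45 in the H295R-PM-Ptc+-labelled ones. Its log2 fold change was -0.52 (SE 0.190), with an adjusted p of 0.195 by edgeR and 0.0426 with the replicate block. Fragments in the shared bases cannot be assigned to either gene, and C9orf47 held far fewer fragments than S1PR3.

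Genes around S1PR3 more often had negative than positive log2 fold changes. Of the 100 nearest tested genes, 50 on each side, 73 had a negative log2 fold change and the median was -0.12, while over all tested genes 8328 of 16710 were negative. The log2 fold change of S1PR3 lay 0.32 below the median of its neighbors, and with 25 genes on each side their median was -0.10. The PTCH1 gene lies on the same chromosome, 6.44 Mb beyond the end of S1PR3, and is among these 100 neighbors. The 100 tested genes around PTCH1, which include S1PR3, had a median of -0.16, and 79 of them were negative. The genes around S1PR5 had a median of 0.01, and those around S1PR1, S1PR2, SPHK1 and SGPL1 had medians of 0.04, 0.01, 0.08 and -0.01. The part of the chromosome in the change of S1PR3 was not tested.

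The genes whose levels followed S1PR3 most closely over the 6 libraries were MRAS, SPATS2L, STK32A, NAAA and UBE2E1. The measure was the root mean square distance between log2 CPM values, each gene centered on its own mean, and it rose from 0.0266 for MRAS to 0.0431 for UBE2E1. MRAS is a small GTPase of the RAS family. UBE2E1, a ubiquitin-conjugating enzyme, had 75.1, 75.4 and 72.9 CPM in the H295R-labelled libraries and 57, 57.1 and 56.8 in the others. Since the genes were picked for this likeness, their fold changes are a description: they ran from -0.48 for MRAS to -0.39 for UBE2E1.

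S1PR5 lies on the minus strand at chr19:10512742-10517931, 0.281 Mb from S1PR2. It is best known from natural killer cells and oligodendrocytes. The counts were 138, 114 and 135 in the H295R-labelled libraries and 101, 90 and 68 in the H295R-PM-Ptc+-labelled ones, or 5.78, 4.49 and 5.46 CPM against 3.95, 3.62 and 2.94. The groups did not overlap, although the gap between them was narrower than the range within either. The means of 5.24 ± 0.671 and 3.50 ± 0.517 CPM (SD, n = 3) gave a log2 fold change of -0.58 (SE 0.165, 95% interval -0.95 to -0.20). The adjusted p by edgeR was 0.101, and it was 0.00821 with the replicate block and 0.0484 without a filter on low counts. Without that filter S1PR3 and S1PR5 were the 2 members that passed, where 3.59% of the genes with a count did. The log2 difference was negative in each same-numbered pair, at -0.55, -0.31 and -0.89.

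S1PR1, the Gi-coupled receptor best known for lymphocyte exit and for the integrity of blood vessels, had a log2 fold change of the other sign. It lies at chr1:101236888-101241518 on the plus strand. The H295R-labelled libraries held 263, 351 and 350 counts and the H295R-PM-Ptc+-labelled ones 375, 402 and 399, or 11, 13.8 and 14.2 CPM against 14.7, 16.2 and 17.2. The groups did not overlap, and replicate 1 was the lowest library of each. The log2 fold change was 0.30 (SE 0.122, 95% interval 0.03 to 0.58), with an adjusted p of 0.247 by edgeR and of 0.0118 with the replicate block. Without H295R replicate 1, its lowest library, the log2 fold change was 0.19. In the 3 same-numbered pairs the differences were 0.41, 0.23 and 0.28.

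S1PR2 and S1PR4 gave little or no signal. S1PR2, which couples strongly to G12/13 proteins, lies at chr19:10223844-10231272 on the minus strand and had 24, 15 and 25 counts in the H295R-labelled libraries and 18, 20 and 22 in the others. The groups overlapped, and the log2 fold change of -0.08 had a 95% interval of -0.72 to 0.56, so a difference of the size seen for S1PR3 or S1PR5 was not detectable at this depth. The S1PR2 model shares 69 exonic bases with DNMT1 on the same strand. It held 1173 exonic bases where a later annotation (GENCODE) has 3643, so any fragments outside the model were not counted. S1PR4, known from lymphoid cells, lies at chr19:3172346-3180332 and had 0 counts in all 6 libraries, which allows a level of up to 0.1162 to 0.129 CPM per library, counting error only. Of the 5 receptor genes, 4 were thus measurable in these cultures, in very unequal amounts.

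Levels of different genes were compared per kilobase of exon in the gene model (CPM per kb). The models of S1PR1, S1PR2, S1PR3 and SGPL1 held 3071, 1173, 8754 and 7486 exonic bases. The later GENCODE annotation gives 5223, 3643, 13702 and 11549. Levels per kb and their order depend on the models, and other models were not tried. S1PR3 stood at 32.5 ± 1.00 in the H295R-labelled libraries and 24.0 ± 0.282 in the others (SD, n = 3), which placed its mean over all libraries at rank 1816 of the 16710 tested genes. SGPL1 followed at 9.93 and 10.4, then S1PR1 at 4.23 and 5.22, and S1PR5 at 1.87 and 1.25. Each of these steps was free of overlap in both groups. S1PR2 at 0.741 and 0.699 and SPHK1 at 0.599 and 0.584 overlapped in both groups, and their order is not set by these data. SPNS2 lay far below them, with a mean of SPHK1 29.9-fold and 13.7-fold higher, and S1PR4 was last with no counts.

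**Figure D2:**
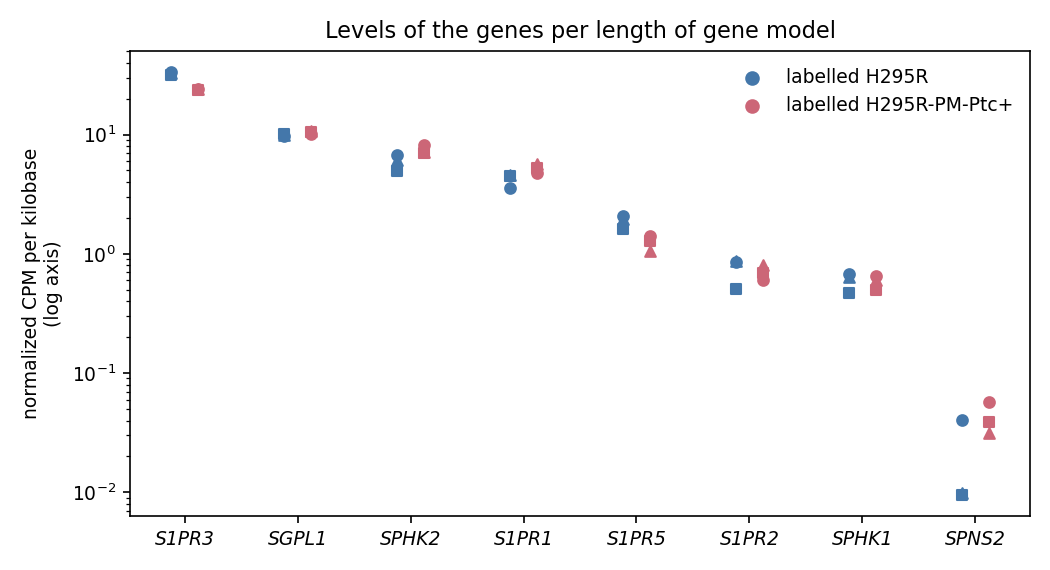
Levels of the S1P genes in CPM per kilobase of exon (log axis), with 1 point per library and color for the group label. S1PR3 stands above SGPL1 by 3.28-fold in the H295R-labelled libraries and 2.29-fold in the others, and the points of S1PR2 and SPHK1 lie in the same range.

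The shares of S1PR3 and S1PR1 in the receptor pool did not overlap between the groups. The summed level of the receptor genes was 40.0, 38.1 and 39.9 CPM per kb in the H295R-labelled libraries and 31.0, 30.9 and 31.4 in the H295R-PM-Ptc+-labelled ones, a difference of -8.25. S1PR3 made up 83.8, 82.7 and 81.4% of it in the first group and 78.1, 76.6 and 76.2% in the second, and S1PR1 8.95, 11.8 and 11.6% against 15.4, 17.0 and 17.9%. The difference in share was -5.65 percentage points for S1PR3 and 6.0 for S1PR1, neither with overlap, and for both the two-sided exact permutation p was 0.1, the smallest that 3 against 3 libraries allow. The S1PR3 to S1PR1 ratio of levels per kb was 7.81 ± 1.35 in the H295R-labelled libraries and 4.61 ± 0.413 in the others (SD, n = 3, exact permutation p = 0.1). The share of S1PR5 overlapped between the groups, at 4.74 ± 0.489% and 4.02 ± 0.621% (exact permutation p = 0.2, n = 3). Shares are parts of the same sum, so a lower level of S1PR3 alone raises the share of S1PR1. The share differences and the ratio of S1PR3 to S1PR1 are therefore not separate results. Shares also depend on the gene lengths used, and with raw counts the difference in the share of S1PR3 was -2.55 percentage points.

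**Figure D3:**
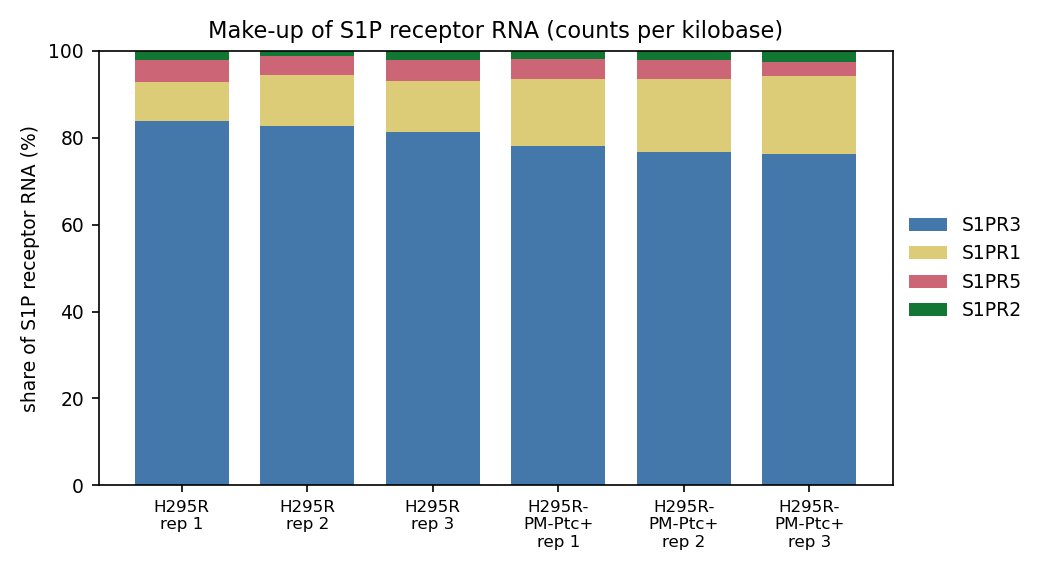
Share of each S1P receptor gene in the summed receptor level (percent of CPM per kb), by library and group label. S1PR3 makes up 81.4 to 83.8% in the H295R-labelled libraries and 76.2 to 78.1% in the H295R-PM-Ptc+-labelled ones, and S1PR1 8.95 to 11.8% and 15.4 to 17.9%.

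Of the genes that make, break down and export S1P, SPHK1 and SGPL1 did not pass the test in either fit and SPNS2 was not tested. SPHK1, at chr17:76376584-76387860, had 72, 53 and 70 counts in the H295R-labelled libraries and 74, 55 and 61 in the H295R-PM-Ptc+-labelled ones. The groups overlapped almost entirely, with a log2 fold change of -0.03 (95% interval -0.47 to 0.41, adjusted p = 0.960 by edgeR). Replicate 2 was the lowest library of both groups. The SPHK1 model shares 59 exonic bases with PRPSAP1 on the opposite strand, which held 1301 to 1702 counts. SGPL1, at chr10:70815961-70881173, had 72.7, 75.2 and 75.0 CPM against 75.6, 78.8 and 80.1. These groups did not overlap, but the log2 fold change was only 0.07 (95% interval -0.08 to 0.23, adjusted p = 0.666 by edgeR, 0.303 with the replicate block). SPNS2, at chr17:4498838-4539035, had 4, 1 and 1 counts against 6, 4 and 3, which is below the filter and near the floor of 3 counts. It shares 139 exonic bases with MYBBP1A on the opposite strand, which held 1921 to 2448 counts. Without overlap between groups were 4 of the 6 tested genes (S1PR1, S1PR3, S1PR5 and SGPL1), as were 23.5% of all tested genes.

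The kinase was low beside the lyase, and low beside the other kinase. The ratio of SPHK1 to SGPL1, per kb, was 0.0604 ± 0.012 in the H295R-labelled libraries and 0.0561 ± 0.00866 in the others (SD, n = 3, exact permutation p = 0.8). SPHK2, the kinase isoform found in the nucleus and mitochondria as well as the cytoplasm, had 961, 760 and 901 counts against 1257, 1044 and 1000, or 40.2, 29.9 and 36.4 CPM against 49.2, 42.0 and 43.2. Every library labelled H295R-PM-Ptc+ lay above the H295R-labelled ones, with a log2 fold change of 0.33 (SE 0.116, adjusted p = 0.174 by edgeR, 7.97e-04 with the replicate block), and of 0.22 without H295R replicate 2. The ratio of SPHK1 to SPHK2 was 0.101 ± 0.00549 and 0.0783 ± 0.00588, with no overlap (SD, n = 3, exact permutation p = 0.1).

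Of 16 other genes of S1P turnover and transport, 12 were tested, and 1 of them, PPAP2A, was higher in the H295R-PM-Ptc+-labelled libraries by the test, as were 2.42% of all tested genes. The median log2 fold change was 0.14, with 7 positive and 5 negative. With the replicate block 5 were higher (PPAP2A, ACER3, ABCA1, SPHK2 and ASAH1) and 2 were lower (PPAP2B and ALDH3A2), where 12.1% and 10.4% of all tested genes were. SGPP2, PPAP2C, MFSD2B and ACER1 were not tested, with at most 7 counts in any library.

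PPAP2A, now named PLPP1, and PPAP2B, now PLPP3, encode lipid phosphate phosphatases that remove the phosphate of S1P and of lysophosphatidic acid outside the cell. PPAP2A had 19.2, 18.5 and 18.2 CPM in the H295R-labelled libraries and 29.2, 24.0 and 25.8 in the H295R-PM-Ptc+-labelled ones. The log2 fold change was 0.50 (SE 0.0944, adjusted p = 0.0243 by edgeR). Leaving out replicate 2 or 3 of H295R took it to 0.0852 and 0.117, and leaving out replicate 1 or 3 of H295R-PM-Ptc+ to 0.0617 and 0.0943. Its log2 fold changes ran from 0.41 to 0.56 over all 6 such fits. PPAP2B had 28.1, 27.7 and 29.8 CPM against 22.7, 26 and 25.5, with a log2 fold change of -0.20 (SE 0.0843, adjusted p = 0.259 by edgeR, 0.0352 with the replicate block). The ratio of the paralogs, PPAP2A to PPAP2B per kb, was 1.72 ± 0.102 in the H295R-labelled libraries and 2.81 ± 0.496 in the others, with no overlap (SD, n = 3, exact permutation p = 0.1).

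ALDH3A2, the fatty aldehyde dehydrogenase that oxidizes the aldehyde released by SGPL1, was the gene of this list with the most counts. It had 471, 438 and 431 CPM in the H295R-labelled libraries and 383, 345 and 347 in the H295R-PM-Ptc+-labelled ones. The groups did not overlap, and the log2 fold change of -0.32 (SE 0.0797) had an adjusted p of 0.0664 by edgeR, 4.11e-05 with the replicate block and 0.014 by DESeq2. Ceramidases release the sphingosine that the kinases use, and of the 4 tested, ACER3, ASAH1 and ACER2 had positive values and ASAH2 a negative one. The log2 fold change was 0.38 for ACER3 (adjusted p = 0.137 by edgeR, 1.44e-04 with the block) and 0.21 for ASAH1 (adjusted p = 0.228, 0.00622 with the block), while neither ACER2 at 0.27 (adjusted p = 0.538, 0.348 with the block) nor ASAH2 at -0.10 (adjusted p = 0.762, 0.557 with the block) passed, and ACER1 had no counts. ACER2 and ASAH2 are given to complete the ceramidases and were chosen after their values were seen. Without H295R-PM-Ptc+ replicate 1, ACER3 passed (0.50, adjusted p = 0.031 by edgeR). ABCA1, a lipid transporter that can carry S1P out of some cells, had 0.35 (adjusted p = 0.276, 0.0447 with the block), and 0.20 without H295R-PM-Ptc+ replicate 3.

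**Figure D4:**
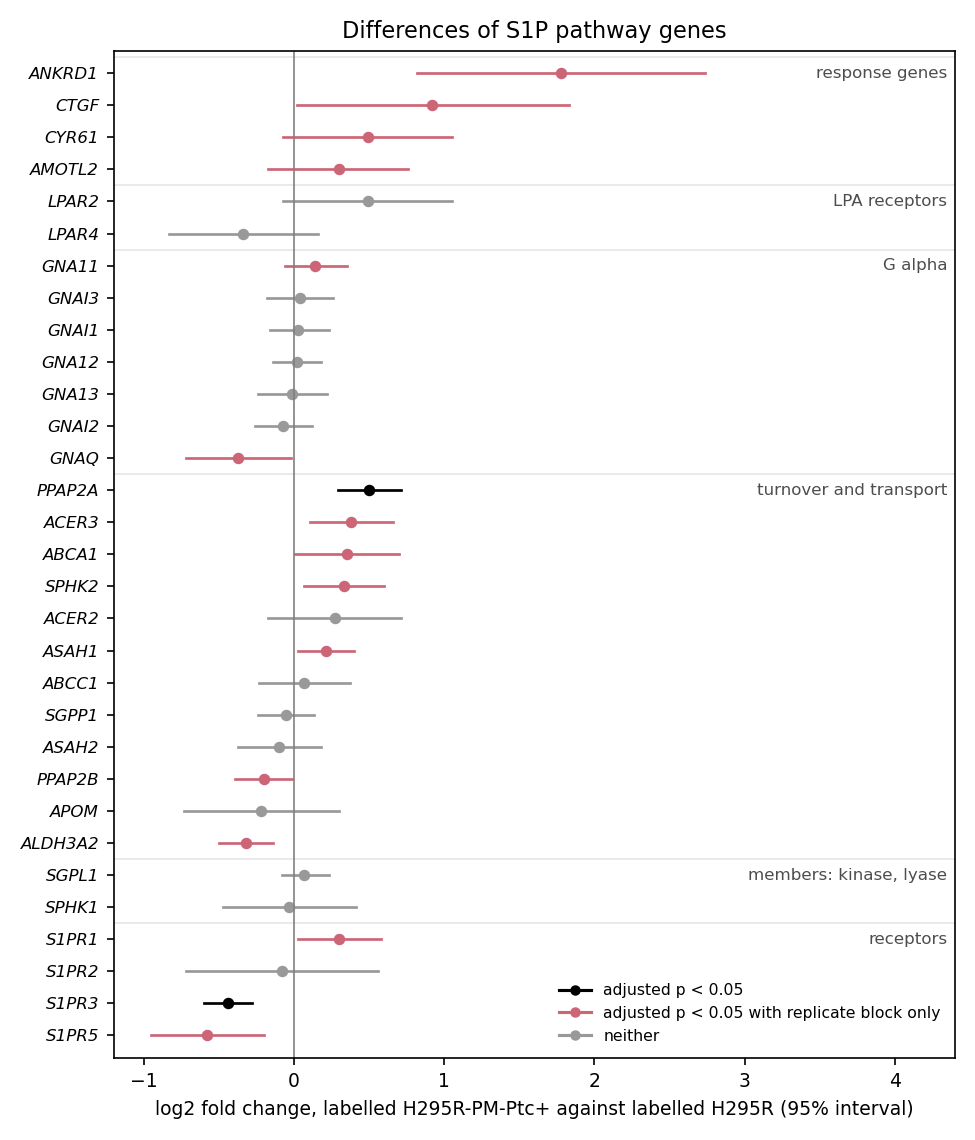
Log2 fold change (H295R-PM-Ptc+-labelled libraries against the H295R-labelled ones) with 95% intervals from edgeR, for the tested S1P genes and related lists. Black marks an adjusted p under 0.05 (S1PR3 at -0.44 and PPAP2A at 0.50), red one with the replicate block only, and gray neither.

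Of the 7 G alpha proteins that S1P receptors use, all were tested and none had an adjusted p under 0.05 by edgeR, DESeq2 or limma-voom, while 1 had an unadjusted p under 0.05, as did 17.3% of all tested genes. With the replicate block 2 of the 7 passed, GNA11 higher and GNAQ lower, where 22.5% of all tested genes did. The median log2 fold change was 0.02. GNAQ, the Gq subunit that activates phospholipase C, had 129, 184 and 178 CPM in the H295R-labelled libraries and 104, 137 and 138 in the others. The groups overlapped, but each same-numbered pair was lower, with a log2 fold change of -0.37 (adjusted p = 0.258 by edgeR, 2.22e-05 with the block). Over the 6 fits without 1 library it ran from -0.52, without H295R replicate 1 (adjusted p = 0.0362 by edgeR), to -0.26, without H295R-PM-Ptc+ replicate 1 (0.398), and the first was the 1 fit of the 6 in which it passed. GNA11, the closest relative of GNAQ, had 0.14 (adjusted p = 0.481 by edgeR, 0.0273 with the block), and 0.06 without the third H295R-PM-Ptc+ replicate.

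Genes that S1P is known to raise in many cells through G12/13 proteins, RhoA and the coactivator YAP were read as a further list. The 4 genes CYR61, CTGF, ANKRD1 and AMOTL2 all had positive log2 fold changes, with a median of 0.71 beside 0.001 over all tested genes. None had an adjusted p under 0.05 by edgeR or DESeq2, and ANKRD1 did by limma-voom (0.0475). Without a filter on low counts ANKRD1 (adjusted p = 0.0126 by edgeR) and CTGF (0.0279) passed. By edgeR 2 of the 4 had an unadjusted p under 0.05, where 17.3% of all tested genes did, and all 4 were higher with the replicate block, where 12.1% were. ANKRD1, a muscle and stress-response protein, had 0.0837, 0.354 and 0.162 CPM in the H295R-labelled libraries and 0.626, 0.724 and 0.778 in the others. These are few counts, with a log2 fold change of 1.78 (SE 0.423, adjusted p = 0.0561 by edgeR, 0.00522 with the block). Without H295R replicate 2 the adjusted p was 0.0404.

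CYR61 and CTGF encode secreted matricellular proteins. CYR61 had 26.8, 48.9 and 51.1 CPM in the H295R-labelled libraries and 43.4, 71.2 and 63.5 in the H295R-PM-Ptc+-labelled ones, a log2 fold change of 0.49 (adjusted p = 0.360 by edgeR, 3.6e-05 with the block). CTGF had 1.21, 4.29 and 3.36 CPM against 3.68, 7.84 and 5.40, a log2 fold change of 0.92 (adjusted p = 0.279, 4.08e-04 with the block). Replicate 1 was the lowest library of each group for CYR61, CTGF and AMOTL2, and the groups overlapped for all 3. Without H295R replicate 1 the log2 fold changes of CYR61, CTGF and AMOTL2 were 0.25, 0.56 and 0.09, where the last was 0.30 with all libraries. Over all 6 fits without 1 library they ran from 0.25 to 0.66, from 0.56 to 1.29 and from 0.09 to 0.49, and none passed. Within each replicate number the H295R-PM-Ptc+-labelled library was the higher for all 3.

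**Figure D5:**
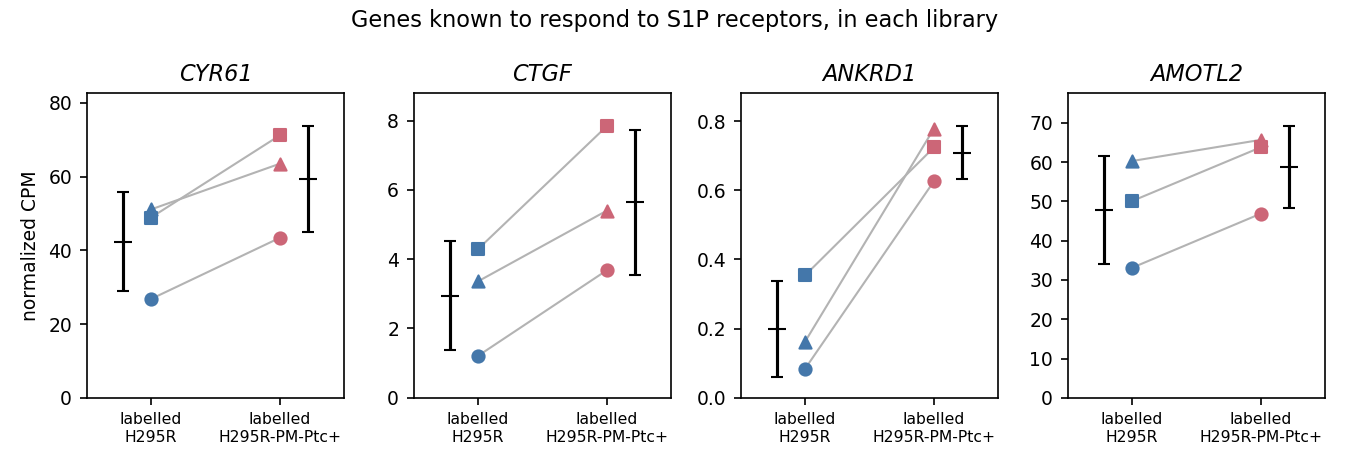
CPM of CYR61, CTGF, ANKRD1 and AMOTL2 in each library, with lines joining same-numbered replicates. All lines rise from the H295R-labelled libraries to the H295R-PM-Ptc+-labelled ones, and replicate 1 is lowest in both groups for CYR61, CTGF and AMOTL2.

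Markers of other cell types that carry S1P receptors were at low levels. None of 5 endothelial markers passed the filter, with at most 11 counts in a library and summed levels of 0.197 to 0.335 CPM in the H295R-labelled libraries and 0.509 to 0.648 in the others. Of 5 immune markers 2 were tested, the sums were 0.809 to 1.34 CPM against 1.73 to 2.15, and PTPRC, which marks all white blood cells, was at 0 in all libraries. Of 5 fibroblast markers 1 was tested, COL1A1, with summed levels of 7.72 to 8.94 CPM against 9.12 to 10.9 and LUM at 0. The 3 sums, like S1PR1, did not overlap between the groups and lay higher in the H295R-PM-Ptc+-labelled libraries, and their part in the result was not tested. Both groups are cultures of the same carcinoma line, so these transcripts need not come from cells of those types. In bulk RNA, fewer cells that carry a transcript and less of it per cell cannot be told apart.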

How the data were processed

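Paired reads were obtained from RNA of H295R and H295R-PM-Ptc+ cells, 3 replicates each. The authors mapped the reads to hg38 with STAR 2.4.0a and ran featureCounts by gene name on Ensembl release 76, by strand and with multiply mapped reads at their primary position. The authors deposited raw counts, without normalization. The labels and the methods differ in the Subread version and in the library kit named. The methods give the forward-strand setting (-s 1) for a TruSeq stranded kit, whose first reads come from the reverse strand. The counts were checked for this: of 855 genes named X-AS1, 86 exceeded gene X, with medians of 0.0396 and 16.2 CPM, so the counts lie largely on the sense strand. One row without a gene name held 0 counts and was left out.

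The main test was the two-sided quasi-likelihood F-test of edgeR 4.0.16 (R 4.3.3) on group alone, after filterByExpr and TMM scaling, with Benjamini-Hochberg adjustment over 16710 genes holding 99.9% of counts. CPM use TMM-scaled library sizes, and log2 CPM for profiles a prior count of 2. Shares and ratios were compared by exact permutation over libraries. In counts simulated for this comparison, edgeR recovered 98.5% of 200 genes changed 2-fold, with 6.64% of calls false. The changed genes were drawn only from those above a low level, and no effect shared by same-numbered replicates was simulated. Smaller folds, such as that of S1PR3, and changes in genes with few counts were not simulated, so this recovery does not apply to them. Floors and intervals on counts cover counting error only. Same-numbered replicates were more alike between the groups than others: the correlation of their deviations over genes was 0.497, 0.307 and 0.228, and -0.352 to 0.150 for other pairs. These correlations depend on each other, since deviations were taken from the group means, and pairing itself was not tested. The study states no pairing, so the block is an alternative. DESeq2 1.42.0, limma 3.58.1, RLE factors, other filters and leaving out each library were also tried. Promoter windows are RefSeq's (GRCh38.p14).

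The members, lists and tests were chosen with earlier results of these data known. Named are all members, listed genes with an adjusted p under 0.05 in the fit without or with the block (else up to 3 per list with the most counts), genes overlapping members, and the 5 genes nearest in profile to S1PR3. Some untested genes of the lists and some further genes are also named, and ACER2 and ASAH2 were added after their values were seen.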

Additional observations from a re-analysis of the deposited data

How the results depend on the processing

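The count of all genes with an adjusted p under 0.05 (624 by edgeR) was 1111 without a filter on low counts, 3758 with the replicate block and 219 to 810 when 1 library was left out. The count of S1P members (1) was 2 without a filter, 3 with the replicate block and 0 to 1 when 1 library was left out, and where it was 0 by edgeR, 2 or 3 members had an unadjusted p under 0.05. DESeq2 and limma-voom on all libraries gave 1. The count of the other pathway genes (1) was 2 by DESeq2, 2 by limma-voom, 5 without a filter, 13 with the replicate block and 0 to 2 when 1 library was left out; at 0 by edgeR, 5 or 7 had an unadjusted p under 0.05. With the replicate block S1PR1 stayed at 0.30 and S1PR5 at -0.58, both then past the threshold, as was S1PR5 without a filter (-0.58). When 1 library was left out, S1PR3 ranged from -0.46 to -0.42, S1PR5 from -0.68 to -0.48, S1PR1 from 0.19 to 0.36, SGPL1 from 0.05 to 0.09, S1PR2 from -0.30 to 0.03 and SPHK1 from -0.18 to 0.07. S1PR2 turned positive without H295R replicate 1 (0.03), H295R replicate 3 (0.03) or H295R-PM-Ptc+ replicate 1 (0.01), and SPHK1 without H295R replicate 1 (0.07), H295R replicate 3 (0.01) or H295R-PM-Ptc+ replicate 2 (0.07), all with adjusted p of at least 0.67 by edgeR. The difference of the SPHK1 to SGPL1 ratio ranged from -0.011 to 0.000581, turning positive without H295R replicate 1. With raw counts in place of counts per kilobase the differences in share were -2.55 points for S1PR3 and 2.68 for S1PR1. The cause of these changes was not tested. Genes with few counts, such as S1PR2, SPNS2 and ANKRD1, are limited by depth.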

Other observations

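Receptors for lysophosphatidic acid, the lipid most like S1P in its signaling, were nearly silent beside S1PR3. Of 6 such genes 2 were tested, none held more than 64 counts in a library, and their summed levels were 2.83 to 4.14 CPM in the H295R-labelled libraries and 3.33 to 4.59 in the H295R-PM-Ptc+-labelled ones. LPAR2 had 2.09, 1.42 and 1.17 CPM in the H295R-labelled libraries and 1.88, 2.57 and 2.12 in the others, a log2 fold change of 0.49 (SE 0.245, adjusted p = 0.355 by edgeR, 0.129 with the replicate block), and 0.31 to 0.75 when 1 library was left out, lowest without H295R replicate 3 and highest without H295R replicate 1. The log2 fold change of LPAR4 was -0.34 (adjusted p = 0.493, 0.281 with the block), with a range of -0.49 to -0.19 when 1 library was left out, the latter without H295R-PM-Ptc+ replicate 1, and LPAR6 had 0 counts in all libraries.

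Among the adrenocortical markers CYP21A2, the steroid 21-hydroxylase, was higher in the H295R-PM-Ptc+-labelled libraries, with 25, 23.3 and 22.2 CPM against 15.3, 11.1 and 12.1 (log2 fold change 0.88, adjusted p = 0.0067 by edgeR). It has a near-identical pseudogene that can share its reads, so its value is uncertain. It was the 1 of 8 tested markers that passed, where 3.73% of all tested genes did. With the replicate block CYP21A2 and STAR, the cholesterol transport protein of steroid synthesis, were higher and CYP11A1, the side-chain cleavage enzyme, was lower, where 12.1% and 10.4% of all tested genes were. The log2 fold change of STAR was 0.41 (adjusted p of 0.346 by edgeR and 3.91e-06 with the block), with a range of 0.17 to 0.62 when 1 library was left out, lowest without H295R-PM-Ptc+ replicate 1 and highest without H295R replicate 1. CYP11A1 had -0.25 (adjusted p of 0.391 by edgeR and 0.001 with the block), with a range of -0.36 to -0.10, the latter without H295R replicate 1. Of 4 markers of the adrenal medulla 1 was tested, CHGA, with 18, 20 and 20 counts in the H295R-labelled libraries and 39, 25 and 22 in the others. Summed medulla levels were 0.787 to 0.809 CPM against 1.04 to 1.53, with DBH and PNMT at 0 in all libraries.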
